A study of Mus musculus with 11 samples.

Results

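Type I interferon-stimulated genes are the genes that cells switch on when interferon-alpha or interferon-beta reaches them. A list of 32 such genes was compared between sympathetic ganglia of ApoE-deficient and wild-type mice. The members were chosen by name, for their known induction by interferon, and the rule that picks them uses no measured value, although earlier results of these data were known when the list was made. Of the 32 genes, 26 had at least 1 probe set annotated to that gene alone, among 12393 such genes on the array. After a filter on low signal, 22 of them were tested among 8433 genes. Isg15, Oas1g, Ifi44, Ifi27, Ddx58 and Xaf1 had no probe set of their own and were not analysed here. Mx1, Mx2, Oas3 and Zbp1 were measured but lay below the filter.

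As background, type I interferons bind a receptor made of Ifnar1 and Ifnar2, and the kinases Jak1 and Tyk2 then phosphorylate transcription factors that include Stat2. Stat2 joins Irf9 in a complex that binds the interferon-stimulated response element in the promoters of target genes. The products act against viruses at many steps: Ifitm membrane proteins hinder viral entry, Ifit proteins bind foreign RNA, and Oas enzymes make a messenger that activates RNA decay. Neurons, glia and macrophages can all respond to interferon, and several of the genes are also induced by interferon-gamma.

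Total RNA was measured on 11 Affymetrix arrays, 6 labelled apoE-/- and 5 labelled wild type. All came from male C57BL mice aged 78 weeks, supplied by the Jackson Laboratory and kept on normal chow. The ganglia were frozen and captured by laser, so each sample holds neurons, glia and any vessels, immune cells, connective tissue or fat within the captured area. In such tissue, fewer cells of a type and less RNA per cell cannot be told apart. The labels do not tie arrays to animals: arrays that share an animal would make the p-values too small, and otherwise the spread between arrays may be partly technical. The files give a linear signal per probe set, and differences below are ApoE-deficient minus wild-type on the log2(signal + 16) scale after quantile normalisation.

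The deleted gene matched the labels, with an Apoe signal of 143 ± 84.6 (SD, n = 6) in ApoE-deficient arrays and 15155 ± 3020 (SD, n = 5) in wild-type arrays (exact two-sided permutation p = 0.0022). Median signal per array ran from 163 to 188.6, and rank correlations between arrays ran from 0.94 to 0.98. Of the 7 noradrenergic neuron markers, 5 were measured, none was at 0 in any array, and their summed signal was 20107 to 34030 in ApoE-deficient and 28176 to 40234 in wild-type arrays. In ApoE-deficient replicates 2, 3 and 4 this sum was 20107 to 23950, below every wild-type array, and in the other 3 ApoE-deficient arrays it was 33564 to 34030. The arrays were divided into 3 levels by their hybridisation controls, which are added to each sample in a fixed amount. The cuts were chosen from these data, at the 2 widest gaps between arrays in mean log2 control signal. The levels ran from 10.87 to 11.07, from 11.78 to 12.05 and from 12.48 to 13.22, and were not balanced over the genotypes. Only ApoE-deficient arrays, the same replicates 2, 3 and 4, had low control signal. The middle level held 1 ApoE-deficient array (replicate 5) beside 3 wild-type ones (replicates 3 to 5), and the other 4 arrays, 2 of each genotype, were high.

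Of the 22 tested members, 2 rose in ApoE-deficient ganglia and 0 fell. The genes that rose were Ifitm1 and Ifitm2, neighbours on chromosome 7 that encode interferon-induced transmembrane proteins. Over all 8433 genes, limma with Benjamini-Hochberg adjustment called 1.26% higher and 0.676% lower at a threshold of 0.05. The median difference of the 22 members was 0.11, beside -0.04 over all genes tested. Of the members 14 lay above 0 and 8 below, and of all genes tested 3630 above and 4803 below. With 1 array left out the members' median ran from 0.054 without wild-type replicate 4 to 0.18 without wild-type replicate 1. It was 0.068 without ApoE-deficient replicate 1. At an unadjusted p under 0.05 there were 3 of the 22 members, or 13.6%, beside 20.3% of all genes. Without Ifitm1, Ifitm2 and Ifitm3 the median of the remaining 19 was 0.08, and their differences ran from -0.32 to 0.39.

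**Figure D1:**
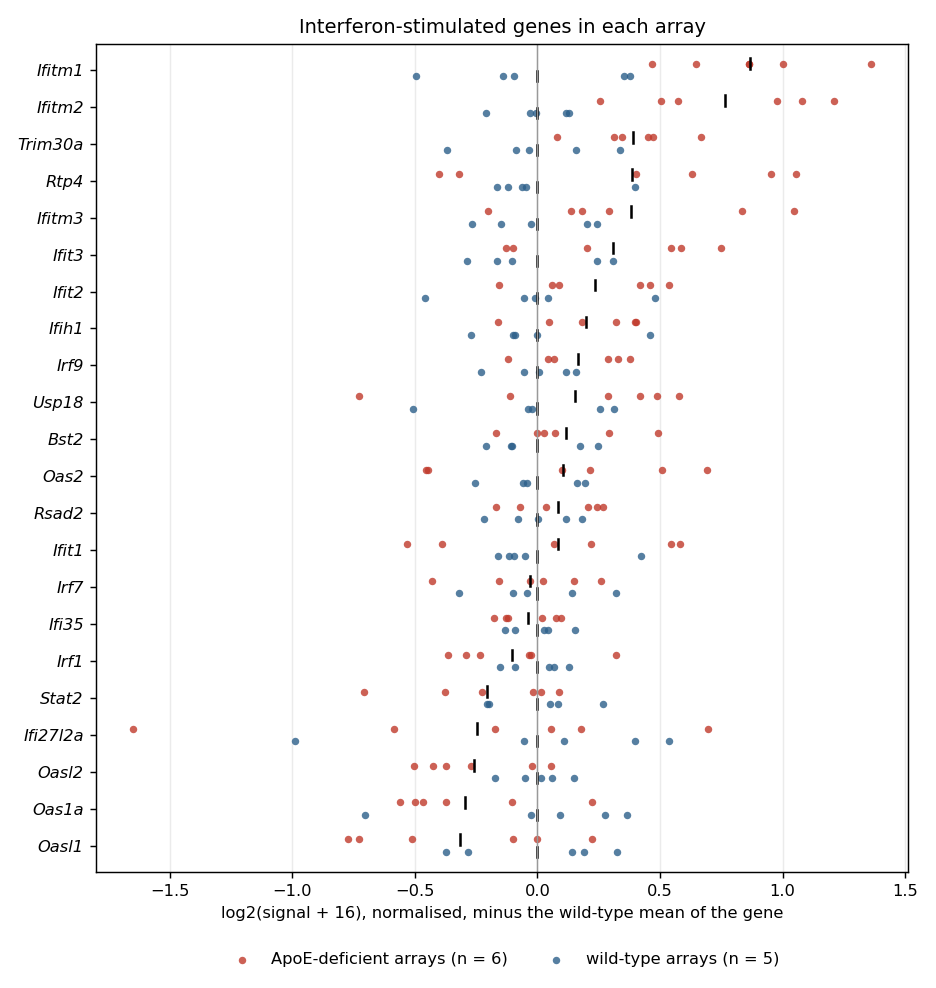
Each point is 1 array, with log2(signal + 16) after normalisation given minus the wild-type mean of the gene, for the 22 tested members in order of their difference; red points are the 6 ApoE-deficient arrays, blue points the 5 wild-type arrays, and black bars the group means. The ApoE-deficient arrays lie clear of the wild-type arrays for Ifitm1 and Ifitm2, and the groups overlap for the other 20 genes.

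Ifitm1 and Ifitm2 had the largest differences of the 22 members. Ifitm1 lay at 7.54, 7.94 and 8.43 (lowest, median and highest log2 value) in the 6 ApoE-deficient arrays, and at 7.43, 7.45, 6.58, 6.98 and 6.93 in wild-type arrays 1 to 5. Every ApoE-deficient array was therefore above every wild-type array, which held for 1.46% of all genes tested. The gap between the groups was small, from 7.45 in the highest wild-type array to 7.54 in the lowest ApoE-deficient one. The wild-type value of 6.58 was under the cut of the low-signal filter, so Ifitm1 passed the filter only with its ApoE-deficient arrays. Without the filter its limma adjusted p was 0.056. The difference was 0.87 (SE 0.19, 95% interval 0.45 to 1.28, limma adjusted p = 0.0355), or 1.82-fold. In deposited units the signal was 234 ± 55.6 (SD, n = 6) in ApoE-deficient and 124 ± 35.3 (SD, n = 5) in wild-type ganglia.

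Ifitm2 lay at 9.38, 9.91 and 10.34 in ApoE-deficient arrays, and at 9.10, 8.92, 9.13, 9.25 and 9.26 in wild-type arrays 1 to 5. Again no array of one genotype reached into the other. The wild-type arrays lay close together (SD 0.14) and the ApoE-deficient arrays were spread more widely (SD 0.38). The difference was 0.77 (SE 0.16, 95% interval 0.42 to 1.11, adjusted p = 0.0254), or 1.70-fold. The signal was 979 ± 254 (SD, n = 6) in ApoE-deficient and 546 ± 53.6 (SD, n = 5) in wild-type ganglia.

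Ifitm3, the family member best known for blocking influenza virus entry, did not pass. It lay at 11.21, 11.65 and 12.46 in ApoE-deficient arrays, against 11.61, 11.38, 11.14, 11.26 and 11.65 in wild-type arrays 1 to 5. ApoE-deficient replicates 1 and 4 stood highest, at 12.46 and 12.25, and replicate 5 was below 4 of the 5 wild-type arrays. The difference was 0.38 (SE 0.19, 95% interval -0.03 to 0.79, adjusted p = 0.28). Bst2, or tetherin, which holds budding virus particles at the cell surface, differed by 0.12 (SE 0.13, adjusted p = 0.64). All 4 membrane protein genes had differences above 0, with a median of 0.57.

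The calls of Ifitm1 and Ifitm2 depended on single arrays. With 1 array left out at a time, Ifitm1 passed in 7 of 11 fits, with differences of 0.75 to 0.97. It missed the threshold without ApoE-deficient replicate 3 (adjusted p = 0.077) or 4 (0.065), and without wild-type replicate 3 (0.077) or 5 (0.091). Ifitm2 passed in 5 of 11 fits, with differences of 0.68 to 0.87. It missed without ApoE-deficient replicate 2 or 4 (adjusted p = 0.061 each), and without wild-type replicate 1 (0.072), 2 (0.084), 3 (0.058) or 5 (0.051). With the control level as a block, Ifitm1 differed by 0.85 (adjusted p = 0.066) and Ifitm2 by 0.65 (adjusted p = 0.24). Within the high level, with 2 arrays of each genotype, the differences were 0.82 for Ifitm1 and 1.01 for Ifitm2. Within the middle level, where 1 ApoE-deficient array met 3 wild-type arrays, they were 0.89 for Ifitm1 and 0.17 for Ifitm2. The low level held no wild-type array and gives no value. In the same comparisons Ifitm3 was at 0.51 in the high level and -0.14 in the middle one.

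Of the markers tested in the same arrays, 9 of 11 for macrophages, 1 of 1 for leukocytes and 2 of 3 for B and plasma cells rose, while 0 of 6 fibroblast, 0 of 6 endothelial and 0 of 2 tested plasmacytoid dendritic cell markers passed the test. Over all genes tested, 1.26% were called higher. The summed signal of 12 macrophage markers was 10247 to 14966 in ApoE-deficient and 6270 to 8020 in wild-type arrays, so 6 of 6 ApoE-deficient arrays were above all wild-type arrays. Of the 11 macrophage markers tested, 9 rose (C1qa, C1qb, C1qc, Cd68, Csf1r, Lyz2, Mpeg1, Mrc1 and Tyrobp). The others, Adgre1 (0.07) and Cd14 (0.02), did not pass, and the median difference of the 11 was 0.82. The count of macrophage calls was 4 when the fit was blocked by control level, with a median of 0.74. Within the high level, which holds fewer arrays, the count was 0, with a median of 0.90. Leaving out ApoE-deficient array 3 gave 5 calls and array 4 gave 6, while leaving out wild-type array 1 gave 5, array 2 or 3 gave 4, and array 5 gave 6. Ptprc, the leukocyte surface protein CD45, had a difference of 1.404 (SE 0.26, limma adjusted p = 0.0141). On the normalised log2 scale its lowest ApoE-deficient array, at 7.73, was just above its highest wild-type array, at 7.70. Its deposited signal was 188 to 674 in ApoE-deficient and 125 to 197 in wild-type arrays, with 5 of 6 above all wild-type arrays. The 6 fibroblast markers summed to 10526 to 16628 in ApoE-deficient and 7988 to 12271 in wild-type arrays, again with 5 of 6 above, and Col3a1 had their smallest adjusted p, 0.075. The 6 endothelial markers overlapped, at 1012 to 1499 in ApoE-deficient and 1049 to 1387 in wild-type arrays. Of the 4 markers of plasmacytoid dendritic cells, a main source of type I interferon, 3 were measured and summed to 1667 to 2632 in ApoE-deficient and 2081 to 2572 in wild-type arrays. The 2 tested were Pacsin1 (-0.30) and Tcf4 (0.09). Whether their signal comes from these cells or from neurons and other cells was not tested, so the sum gives no measure of these cells. The 5 measured B and plasma cell markers of 6 summed to 11991 to 65031 in ApoE-deficient and 767 to 16879 in wild-type arrays, with 3 of 6 above all wild-type arrays. Wild-type replicate 4 made that upper end, and the other 4 wild-type arrays lay at 767 to 1647. The antibody genes Jchain and Ighm rose, by 4.33 (adjusted p = 0.0058) and 3.76 (adjusted p = 0.0116). The B cell marker Ms4a1 did not pass (0.39, adjusted p = 0.55). White adipocyte markers, 4 measured of 6, summed to 3261 to 24989 in ApoE-deficient and 10061 to 31512 in wild-type arrays. The 3 tested, Adipoq, Retn and Fabp4, differed by -0.48, -0.74 and -0.77, and 0 passed. Satellite glia markers without Apoe summed to 6891 to 13957 in ApoE-deficient and 5891 to 12629 in wild-type arrays. T and natural killer cell markers summed to 371 to 852 and 220 to 577 in the same order. No marker of these lists was at 0 in any array. The part of these cells in the Ifitm1 and Ifitm2 differences was not tested.

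The Ifitm genes lie in a cluster on chromosome 7, the chromosome that also carries Apoe. In the RefSeq gene order 481 tested genes separate Apoe from Ifitm2. Among the 10 tested genes on each side of the cluster, 0 of 20 passed the threshold, and their differences ran from -1.66 for Cox8b (adjusted p = 0.062) to 0.13 for Sigirr. Irf7, itself a member, is one of those 20. The relative Ifitm10 differed by -0.37 and Ifitm6, which lay below the filter, by -0.01. Ifitm1, Ifitm2 and Ifitm3 are similar in sequence, and whether their probe sets read one another's transcripts was not tested. Trim30a also lies on chromosome 7, and with Ifitm1 and Ifitm2 it makes up the 3 members at an unadjusted limma p under 0.05. The part of the shared chromosome in these differences was not tested.

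The promoters of the Ifitm genes are shown because Ifitm1 and Ifitm2 rose and Ifitm3 is their neighbour, and those of Ifit1 and Ifit3 because they are classical targets that did not pass. Each run is 5′ to 3′ on the gene's own strand, from 250 bases before the RefSeq start through the first 30 bases after it, in the assembly GRCm38.p6. Capitals mark the core of the interferon-stimulated response element, which is GAAA, any pair of bases and GAAA again, on either strand.
Ifitm1 (chr7:140967826-140968105, plus strand): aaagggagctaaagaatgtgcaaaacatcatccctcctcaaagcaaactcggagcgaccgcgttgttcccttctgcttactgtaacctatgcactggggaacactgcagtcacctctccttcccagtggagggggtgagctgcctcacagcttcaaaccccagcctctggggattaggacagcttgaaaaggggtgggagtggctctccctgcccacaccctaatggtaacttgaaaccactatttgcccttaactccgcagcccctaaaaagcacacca
Ifitm2 (chr7:140955932-140956211, minus strand): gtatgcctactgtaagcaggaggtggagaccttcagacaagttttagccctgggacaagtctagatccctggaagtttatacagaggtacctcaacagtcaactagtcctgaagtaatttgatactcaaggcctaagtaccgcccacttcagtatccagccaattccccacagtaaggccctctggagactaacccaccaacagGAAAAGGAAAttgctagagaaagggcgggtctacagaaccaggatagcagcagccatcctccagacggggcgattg
Ifitm3 (chr7:141010715-141010994, minus strand): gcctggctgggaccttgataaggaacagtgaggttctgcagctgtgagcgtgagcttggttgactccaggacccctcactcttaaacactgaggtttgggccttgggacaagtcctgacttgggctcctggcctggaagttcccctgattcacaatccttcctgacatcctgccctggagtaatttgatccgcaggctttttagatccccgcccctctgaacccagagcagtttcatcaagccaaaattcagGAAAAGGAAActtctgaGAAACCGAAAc
Ifit1 (chr19:34640639-34640918, plus strand): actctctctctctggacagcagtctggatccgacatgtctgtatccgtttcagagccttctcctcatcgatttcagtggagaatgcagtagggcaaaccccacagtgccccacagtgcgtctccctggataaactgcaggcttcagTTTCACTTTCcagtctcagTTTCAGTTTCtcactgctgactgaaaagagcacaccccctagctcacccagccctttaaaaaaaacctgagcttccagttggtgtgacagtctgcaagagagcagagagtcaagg
Ifit3 (chr19:34583279-34583558, plus strand): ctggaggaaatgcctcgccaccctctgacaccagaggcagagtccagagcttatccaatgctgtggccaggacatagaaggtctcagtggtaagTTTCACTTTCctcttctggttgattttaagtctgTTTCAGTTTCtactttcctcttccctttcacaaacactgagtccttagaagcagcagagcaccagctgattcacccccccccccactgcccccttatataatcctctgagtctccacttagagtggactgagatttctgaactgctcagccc

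Counting the start as +1 and the base before it as -1, Ifitm2 holds the core at -46 to -37. Ifitm3 holds it at 3 to 12 and again at 20 to 29, just past the start. Ifit1 holds it at -104 to -95 and -85 to -76, and Ifit3 at -156 to -147 and -122 to -113. The Ifitm1 window holds no match, although this gene had the largest difference of the list. Over the full windows of 250 bases before to 50 after the start, 24 members were in the promoter table, with 28 windows. The core was in 15 of those 28 windows (53.6%), or 14 genes, against 1131 of all 32851 windows (3.44%). The gamma-activated site TTCNNNGAA, which reads the same on both strands, was in the windows of 6 genes. That is 21.4% of the members' windows, against 8.3% of all windows, and in Ifitm3 and Bst2 it overlaps the core. Ifi27, Ifi27l2a, Mx1, Mx2, Oas2, Rtp4, Usp18 and Zbp1 were not in the table.

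The 10 tested members with the core had a median difference of 0.16, with a range from -0.30 for Oas1a to 0.77 for Ifitm2. The 8 without it had a median of -0.03, from -0.32 for Oasl1 to 0.87 for Ifitm1. The ranges of the members with and without the core overlapped almost completely. A match describes the letters in the window and is not a measured binding site.

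**Figure D2:**
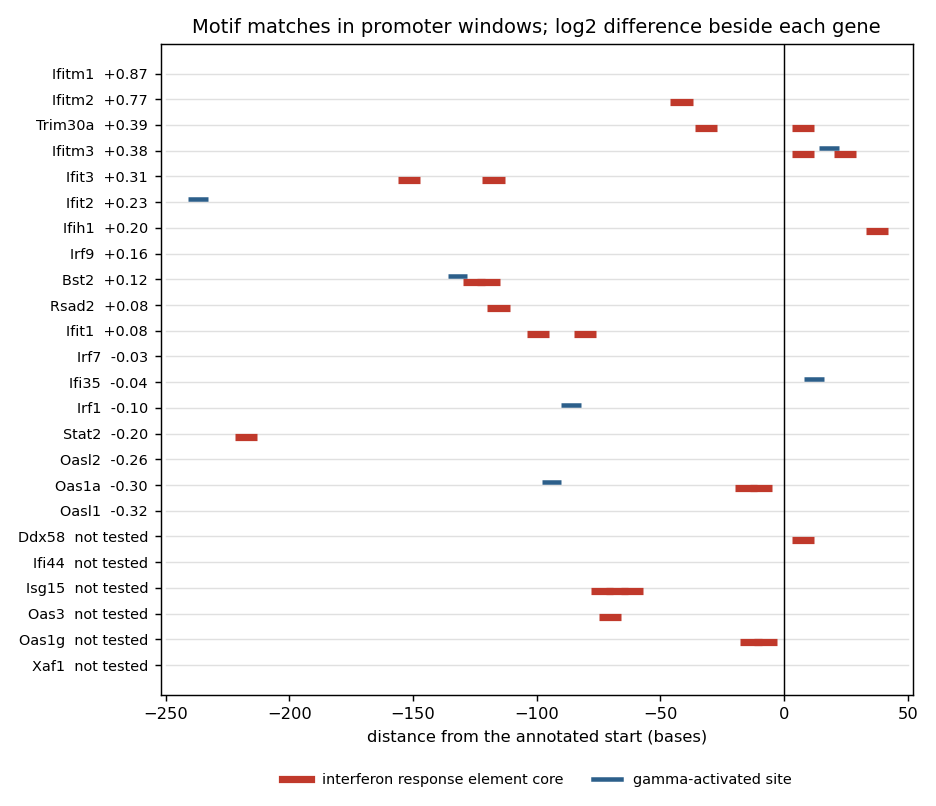
Positions of the motif matches in the promoter windows of 24 members, as distance in bases from the annotated start, with the log2 difference beside each gene name and genes in order of it; red bars are the response element core and blue bars the gamma-activated site, and windows of the same gene are drawn on 1 line. Ifitm1, at the top with 0.87, has no match, and Oas1a, at -0.30, has overlapping cores just before its start.

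The Ifit genes, which encode RNA-binding proteins with tetratricopeptide repeats, did not pass, although all 3 differences were above 0. Ifit3 lay at 9.12, 9.62 and just under 10 in ApoE-deficient arrays, against 9.49, 8.96, 9.09, 9.15 and 9.56 in wild-type arrays 1 to 5. ApoE-deficient replicates 1, 3 and 4 were above all wild-type arrays and the other 3 were not. The difference was 0.31 (SE 0.18, 95% interval -0.07 to 0.69, adjusted p = 0.33), and it was 0.14 when blocked by control level. Ifit2 lay at 8.23, 8.64 and 8.93 in ApoE-deficient arrays, against 8.87, 7.93, 8.33, 8.38 and 8.43 in wild-type arrays 1 to 5. The Ifit2 arrays of both genotypes overlapped widely, with a difference of 0.23 (SE 0.17, adjusted p = 0.44).

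Ifit1, which binds viral RNA that lacks the host's cap methylation, lay at 9.67, 9.82, 10.15, 10.18, 9.21 and 9.07 in ApoE-deficient arrays 1 to 6. In wild-type arrays 1 to 5 it lay at 10.03, 9.49, 9.55, 9.44 and 9.51. The 2 highest ApoE-deficient arrays, replicates 3 and 4, belong to the low control level, and replicates 5 and 6 were below every wild-type array. The difference was 0.08 (SE 0.20, 95% interval -0.34 to 0.51, adjusted p = 0.84), and without the 3 low-level arrays it was -0.28.

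The Oas family, whose enzymes make the activator of RNase L, had no gene past the threshold and no common direction. Over the 4 members tested the median was -0.28, with only Oas2 above 0 (0.10, SE 0.22). Oas1b and Oas1c, tested with the further interferon-stimulated genes below, differed by 0.062 and 0.061. Oas2 differed by 0.65 within the high control level and by -0.49 within the middle one. Oasl2 lay at 9.09, 9.28 and 9.65 in ApoE-deficient arrays, against 9.75, 9.66, 9.55, 9.42 and 9.61 in wild-type arrays 1 to 5. For Oasl2, 4 of 6 ApoE-deficient arrays were below all wild-type arrays, and replicates 4 and 5 were not. The difference was -0.26 (SE 0.12, 95% interval -0.51 to 0.00082, adjusted p = 0.25).

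Oasl1, whose protein is known in mice to hold back translation of Irf7, lay at 7.29, 7.76 and 8.29 in ApoE-deficient arrays and at 8.20, 8.39, 8.25, 7.78 and 7.69 in wild-type arrays 1 to 5. ApoE-deficient replicates 2, 5 and 6 were below all wild-type arrays, and the difference was -0.32 (SE 0.20, adjusted p = 0.39). Oas1a encodes a synthetase that is switched on by double-stranded RNA. It lay at 8.71, 8.85 and 9.49 in ApoE-deficient arrays and at 9.64, 9.36, 9.24, 8.57 and 9.55 in wild-type arrays 1 to 5. Wild-type replicate 4 was the lowest of all 11 arrays, so the groups overlapped in full, and the difference was -0.30 (SE 0.19, adjusted p = 0.39). Oas3 lay below the filter, with a signal of 66.8 ± 14.2 (SD, n = 6) in ApoE-deficient and 67.5 ± 30.1 (SD, n = 5) in wild-type ganglia.

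**Figure D3:**
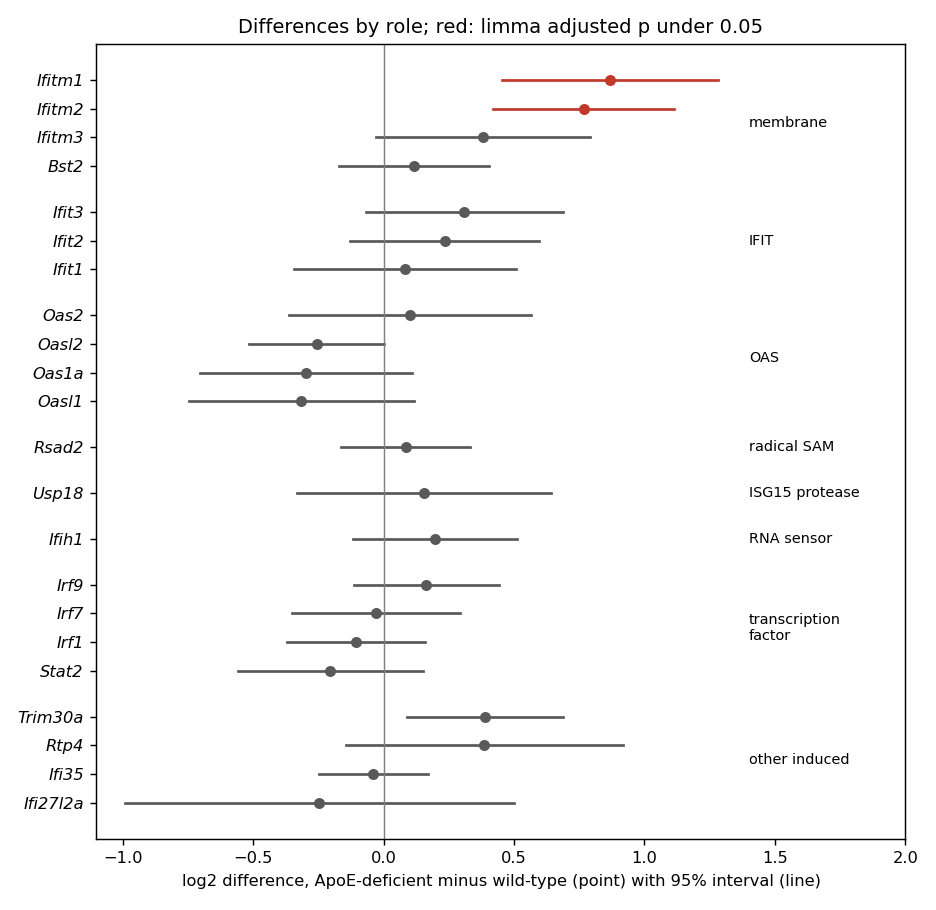
Log2 difference, ApoE-deficient minus wild-type, of each tested member with its 95% interval from the fit over all genes, grouped by role. The intervals of Ifitm1, Ifitm2 and Trim30a lie above 0, with only Ifitm1 and Ifitm2 past the adjusted threshold, and 3 of the 4 Oas family genes lie left of 0.

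The transcription factors that carry the interferon signal were close to even between the genotypes. Irf9, the DNA-binding partner of Stat2, differed by 0.16 (SE 0.13, adjusted p = 0.48), with 3 of 6 ApoE-deficient arrays above all wild-type arrays. Irf7, which amplifies interferon production and is itself strongly induced, differed by -0.03 (SE 0.15, 95% interval -0.35 to 0.29, adjusted p = 0.92). Irf1, which also responds to interferon-gamma, differed by -0.10 (SE 0.12, adjusted p = 0.66). Stat2 had probe sets of opposite sign. The one of higher mean gave -0.20 (SE 0.17) and the other 0.17 (SE 0.21), and neither passed, so no direction can be given for Stat2.

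Trim30a, a mouse ubiquitin ligase that restrains Toll-like receptor signalling, also had a pair of probe sets that differed in size. The one of higher mean lay at 8.41, 8.72 and 8.995 in ApoE-deficient arrays, against 8.24, 7.96, 8.66, 8.29 and 8.48 in wild-type arrays 1 to 5. With it, 4 of 6 ApoE-deficient arrays were above all wild-type arrays, and the difference was 0.39 (SE 0.14, 95% interval 0.09 to 0.69, adjusted p = 0.15). The other lay at 7.45, 8.05 and 8.29 in ApoE-deficient arrays, against 7.29, 7.12, 7.35, 7.19 and 6.96 in wild-type arrays 1 to 5. With that probe set every ApoE-deficient array was above every wild-type array. Among the probe sets that represent the genes tested, this held for 1.46%. Its difference was 0.72 (SE 0.17), with an adjusted p of 0.058 in the fit over 13863 probe sets, where 1.35% passed. When the probe sets of a gene were averaged, Trim30a passed, with a difference of 0.56 (adjusted p = 0.039).

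**Figure D4:**
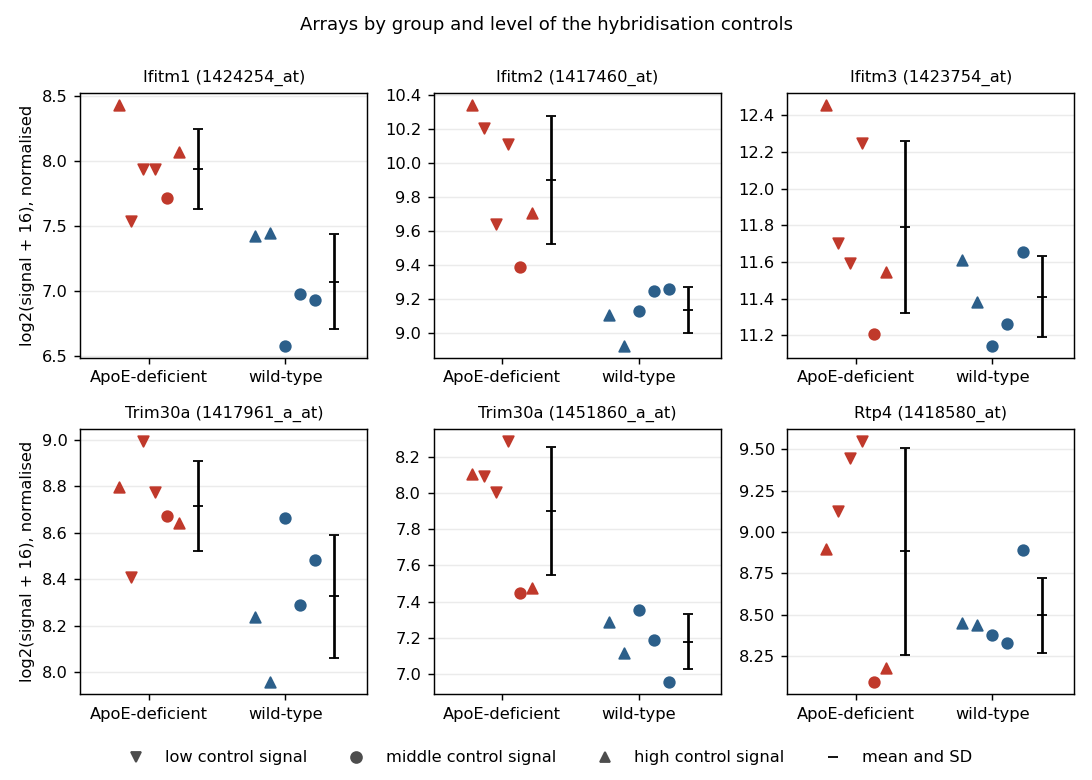
Log2(signal + 16) after normalisation in each array for the Ifitm genes, both Trim30a probe sets and Rtp4, with the 6 ApoE-deficient arrays (red) left of the 5 wild-type arrays (blue), bars at the mean and SD, and marker shape giving the level of the hybridisation controls. The groups are apart for Ifitm1, Ifitm2 and the second Trim30a probe set, and overlap in the other panels.

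Rsad2, or viperin, a radical SAM enzyme that makes a chain-terminating nucleotide, had 3 probe sets past the filter. The one of highest mean gave 0.08 (SE 0.12, adjusted p = 0.70). The others gave 0.31 and 0.41, with adjusted p = 0.29 and 0.16 in the probe set fit, and for the last 5 of 6 ApoE-deficient arrays were above all wild-type arrays. None of the 3 probe sets passed. The GTPases Mx1 and Mx2, of which Mx1 carries a deletion in many inbred strains including C57BL/6, were below the filter. Their signals were 51.3 ± 11.3 for Mx1 and 16.6 ± 3.11 for Mx2 in ApoE-deficient ganglia (SD, n = 6), against 56.1 ± 35.4 for Mx1 and 20.8 ± 3.60 for Mx2 in wild-type ganglia (SD, n = 5).

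Rtp4, a chaperone-like protein that dampens interferon responses in mice, showed the clearest split inside a genotype. It lay at 8.90, 9.13, 9.45, 9.55, 8.09 and 8.18 in ApoE-deficient arrays 1 to 6, against 8.45, 8.44, 8.37, 8.33 and 8.89 in wild-type arrays 1 to 5. ApoE-deficient replicates 1 to 4 were above all wild-type arrays and replicates 5 and 6 below all of them. The difference was 0.39 (SE 0.25, adjusted p = 0.39), and without the 3 low-level arrays it was -0.10. Another Rtp4 probe set lay below the filter and gave -0.14. Its signal was 7.43 ± 7.76 (SD, n = 6) in ApoE-deficient and 10.5 ± 8.20 (SD, n = 5) in wild-type ganglia. Usp18, the protease that removes ISG15 from proteins and shuts off the receptor, differed by 0.16 (SE 0.23, adjusted p = 0.73). Without the 3 low-level arrays the Usp18 difference was -0.12.

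The remaining members were Ifih1, Ifi35, Ifi27l2a and Zbp1. Ifih1, the cytosolic sensor of long double-stranded RNA known as MDA5, differed by 0.20 (SE 0.15, adjusted p = 0.45). Ifi35, which forms complexes with Nmi, differed by -0.04 (SE 0.098, 95% interval -0.25 to 0.17). Ifi27l2a varied most between arrays among the tested members, from 10.13 to 12.48 in ApoE-deficient and from 10.79 to 12.32 in wild-type arrays, with a difference of -0.25 (SE 0.35). Zbp1, a sensor of Z-form nucleic acid that can trigger necroptosis, lay below the filter with both of its probe sets. Its signals were 45.5 ± 26.9 and 101 ± 58.2 in ApoE-deficient ganglia (SD, n = 6), against 28.8 ± 21.1 and 52 ± 31.5 in wild-type ganglia (SD, n = 5).

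The members' level also differed between arrays of one genotype. The median deviation of the 22 members from their group mean was highest in ApoE-deficient replicate 4 (0.21) and lowest in ApoE-deficient replicate 5 (-0.17), and among wild-type arrays it ran from -0.16 in replicate 4 to 0.15 in replicate 1. Wild-type replicate 4 was the lowest wild-type array for 11 of the 22 members, and wild-type replicate 1 for 0 of them. These medians had an SD of 0.13 between replicates. That is a spread of single arrays, while the members' median difference of 0.11 is between means of 6 and 5 arrays. The SD is therefore not the uncertainty of that difference. With the control level as a block the median of the members was 0.02, and 0 members passed.

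Genes elsewhere in the pathway gave few calls. Over all genes tested, 1.26% were called higher, 0.676% were called lower, and 20.3% had an unadjusted p under 0.05. Of 25 genes of interferon receptors and signalling, 24 had a probe set of their own, 15 were tested and 0 passed in either direction, with a median of -0.02 and 3 at an unadjusted p under 0.05. Smallest in p were Irf8, a transcription factor of myeloid cells (0.54, adjusted p = 0.17), and Stat3 (-0.40, adjusted p = 0.20). Of the 3 Stat3 probe sets, one of lower mean passed in the probe set fit, with -0.86 (SE 0.19, adjusted p = 0.0347), and the remaining one gave -0.32 (SE 0.27). The receptor genes Ifnar1 and Ifnar2 differed by 0.29 (SE 0.12, adjusted p = 0.20) and 0.23 (SE 0.17, adjusted p = 0.45). Of 21 sensors of foreign nucleic acid and their adaptors, 10 were tested and 0 passed in either direction, with a median of -0.17 and 4 at an unadjusted p under 0.05. Dhx58, a helicase that modulates RNA sensing, differed by -0.38 (adjusted p = 0.13), and Myd88, the adaptor of most Toll-like receptors, by 0.32 (adjusted p = 0.18).

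Of 51 further interferon-stimulated genes, 30 were tested and 0 passed in either direction, with a median of 0.14. Of the 30, 8 had an unadjusted p under 0.05, beside 20.3% of all genes tested. Above 0 lay 22 of the 30 and below it 8, and over all genes tested 3630 lay above and 4803 below. The smallest p-values belonged to Apobec3, a cytidine deaminase that restricts retroviruses (0.65, adjusted p = 0.091), and Epsti1 (0.67, adjusted p = 0.094). Ccl5 had the largest difference of the 30 (1.17, adjusted p = 0.097). Ccl5 and Epsti1 passed with array weights and without ApoE-deficient replicate 1, and under no other alternative. Of 9 tested genes for MHC class I and its peptide supply, 0 passed in either direction, with a median of 0.02 and 1 at an unadjusted p under 0.05. The immunoproteasome subunits Psmb9 and Psmb8 had the smallest p and differed by 0.38 (adjusted p = 0.22) and 0.21 (adjusted p = 0.32). Psmb10, also a subunit, went the other way (-0.18, adjusted p = 0.39).

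The GTPases that are induced mainly by interferon-gamma included calls. Of 16 such genes, 9 were tested, 2 rose and 0 fell, beside 1.26% higher and 0.676% lower of all genes tested. The 9 had a median of 0.34, with 8 of 9 differences above 0 and 5 at an unadjusted p under 0.05. Over all genes tested, 20.3% passed that p, and 3630 lay above 0 and 4803 below. The median was 0.13 when the fit was blocked by control level and 0.12 without the 3 low-level arrays. Ifi47, of the immunity-related GTPases, lay at 8.37, 8.73 and 9.30 in ApoE-deficient arrays and at 7.64, 8.07 and 8.26 (lowest, median and highest) in wild-type arrays. Gbp2, a guanylate-binding protein, lay at 8.25, 8.75 and 9.45 in ApoE-deficient arrays and at 7.56, 7.87 and 8.22 in wild-type arrays. For both genes all ApoE-deficient arrays were above all wild-type arrays, with differences of 0.80 (SE 0.17, adjusted p = 0.028) for Ifi47 and 0.85 (SE 0.19, adjusted p = 0.038) for Gbp2. The same separation held for Gbp6, which did not pass (0.54, adjusted p = 0.14), and for 1.46% of all genes tested. Leaving out ApoE-deficient array 3 or 4 lost both calls, and so did leaving out wild-type array 1, 2 or 5. Gbp2 also missed the threshold when ApoE-deficient array 2 or wild-type array 3 was left out. Blocked by control level, the differences were 0.64 for Ifi47 (adjusted p = 0.25) and 0.62 for Gbp2 (adjusted p = 0.32). Whether the GTPases and the type I list differ from each other was not tested.

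**Figure D5:**
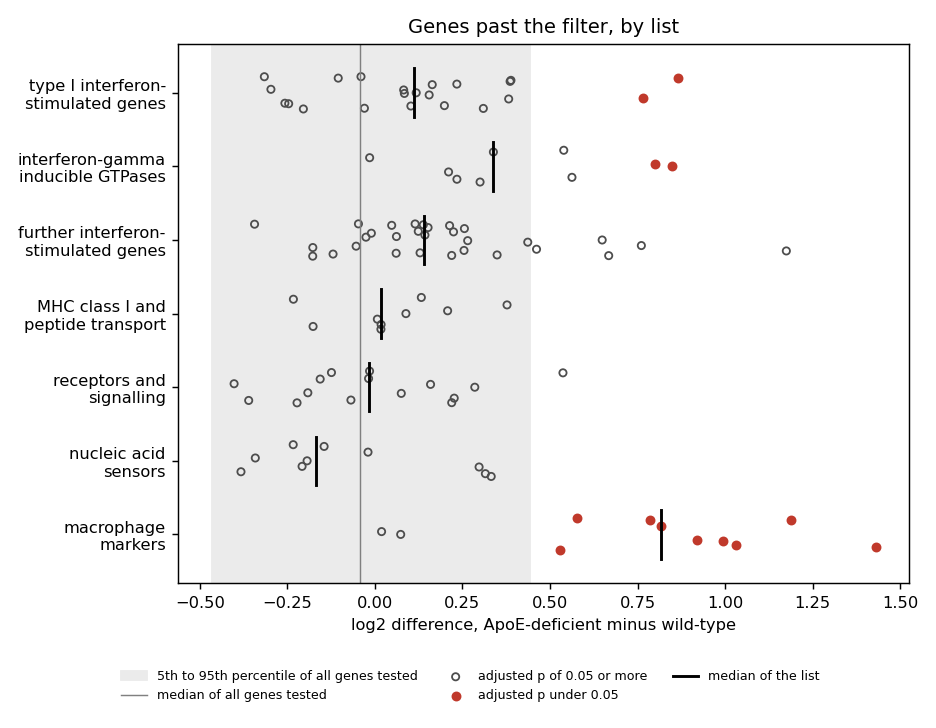
Log2 difference, ApoE-deficient minus wild-type, of every tested gene of 7 lists, 1 point a gene; filled red points passed the adjusted threshold, black bars are the list medians, and the grey band holds the middle 90% of all genes tested. Ifitm1 and Ifitm2 stand to the right in the top line, beside calls among the interferon-gamma inducible GTPases and 9 of the 11 macrophage markers in the bottom line.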

How the data were processed

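Total RNA of laser-captured sympathetic ganglia was measured on 11 arrays, 6 ApoE-deficient and 5 wild-type per the labels, and groups follow the genotype label. The deposited values are linear probe set intensity values made by the authors with GCOS 1.4, as the submitters' processing notes state. How the signal was computed, and whether probe sets were called present, is not given in the sources used. The 2% trimmed mean was near 500.2 on every array, which a scaling to a common target leaves. There were 22690 probe sets, 64 of them controls. The platform annotation gave 1 gene to 20380 of the others, several to 691 and none to 1555. The members had 32 probe sets of their own, 26 of them past the filter, and 2 probe sets that carry a member's symbol with another gene's were left out.

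Quantile normalisation followed a log2(signal + 16) step, and a probe set was kept if 5 or more arrays had it above the 40th percentile of all values. Each gene was represented by its probe set of highest mean. Limma 3.58.1 in R 4.3.3 was fitted to all 8433 genes (intensity trend, two-sided, Benjamini-Hochberg adjustment over all genes, threshold 0.05). Intervals are 95%. The fit was tested on simulated data. The fold is understated for low genes. Apoe was tested by an exact permutation test over 462 groupings of the arrays. No arrays were identical. The number of arrays limits the precision.

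The members and lists were chosen with earlier results of these data known. Values per array are given for the members past the threshold and the 10 of smallest p, and a member is also named where its probe sets differ in sign or 1 array changes its call. Of the pathway lists the genes past the threshold and the 2 of smallest p are named. Ifnar1, Ifnar2, Gbp6, Psmb10, Ccl5, Pacsin1 and Tcf4 were added after their values were seen. So were the markers past the threshold and values by array of Ifit1. Promoters are RefSeq's (GRCm38.p6), searched on both strands, and 24 of 32 members matched by symbol. Alternatives changed the scaling, pseudocount, low-signal filter, choice of probe set, variance model and blocks, or left out each array. Those for Gbp2, Ifi47 and the macrophage markers were added after seeing the data. Figures were drawn with matplotlib 3.10.9.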

Additional observations from a re-analysis of the deposited data

Results flagged for a closer look

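In 44 groups (22 members in each genotype) the highest and lowest arrays were set against the rest of their group with Dixon's ratio, and 2 groups held an array past the 95% critical value, near the share that chance alone flags. Ifit1 was highest in wild-type replicate 1, at a log2 value of 10.03, with the next wild-type array at 9.55 and the lowest at 9.44 (ratio 0.81). Rtp4 was highest in wild-type replicate 5, at 8.89, with the next wild-type array at 8.45 and the lowest at 8.33 (ratio 0.79). Neither gene passed the genotype test.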

How the results depend on the processing

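Of 565 values of the 22 members under an alternative, 521 kept their direction and side of the threshold, 18 lost a call, 1 gained one and 25 changed sign, these over 10 members; Ifitm1 and Ifitm2 never changed sign. Members called numbered 1 without the filter, 1 with the filter at the 60th percentile (where Ifitm1 is not tested) and 1 with the replicate block (Ifitm2 each time), and 0 with the level block (control level), 0 within the high level and 0 without the low level. With 1 array left out there were 0 to 2. Genes called numbered 668 with array weights, 45 with the level block, 4 within the high level, 24 without the low level and 75 to 267 with 1 array left out, against 163. With the level block Ifi35 was at 0.037, Ifih1 at -0.030, Ifit1 at -0.34, Irf1 at 0.066, Rtp4 at -0.13 and Usp18 at -0.070. Within the high level Ifi27l2a was at 0.82, Ifit1 at -0.38, Ifit2 at -0.043, Irf1 at 0.13 and Usp18 at -0.56. Without the low level Ifi35 was at 0.063, Ifit1 at -0.28, Ifit2 at -0.0023, Irf1 at 0.088, Irf7 at 0.049, Rtp4 at -0.10 and Usp18 at -0.12. With 1 array left out Oas2 ran from -0.015 to 0.21, Ifit1 from -0.017 to 0.21, Irf7 from -0.11 to 0.051 and Ifi27l2a from -0.49 to 0.035. The number of pathway genes called (2, Gbp2 and Ifi47) was 1 without the filter and 1 with probe sets averaged (Ifi47 each time), 3 with the replicate block (adding Gbp3), 3 with every probe set tested (adding Stat3), 5 with array weights, 0 to 4 with 1 array left out, and 0 with the level block, within the high level or without the low level. The cause was not tested; fewer arrays enter the last 2 level settings. With up to 1 mismatch the core was in 22 of 24 genes, against 35.4% of all windows. The labels do not say whether equal replicate numbers pair the arrays. Deviations of arrays with the same number had correlations from -0.18 to 0.15, which cannot settle it. The replicate block called 185 genes.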
